A study of Mus musculus with 5 samples.

Results

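Neurons that do not use acetylcholine are recognised by a small set of vesicular transporters and synthesis enzymes, and 10 such genes were followed here while mouse embryonic stem (ES) cells became motor neurons, which are themselves cholinergic. The genes were Slc17a6 and Slc17a7 for glutamate, Slc32a1, Gad1 and Gad2 for GABA, Slc6a5 for glycine, Slc6a4 and Tph2 for serotonin, and Th and Ddc for catecholamines. They were listed by their roles, with earlier results of these data known. Of the 10 genes, 9 had a probe that could be matched through its transcript accession, with 11 probes in all, among 19897 genes named from 26300 of the 55681 mouse probes on the array. Slc6a5, the plasma membrane glycine transporter of glycinergic neurons, had no matched probe and is not analysed here.

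RNA was measured on 1 Agilent one-colour array at each of 5 time points, so 5 arrays were available in all and no value has a replicate. The cells were wild type and male at every time point. The ES array held undifferentiated ES cells, and the later arrays held embryoid bodies, the floating cell clusters in which ES cells differentiate. Their labels give 8 hours of retinoic acid (RA) for Day2, 1 day for Day3, 2 days for Day4 and 5 days for Day7. The treatment entry of the same labels gives RA together with Shh, the ventralising signal of the neural tube, from day 2 to day 5, while the study's methods name the smoothened agonist SAG. The Day7 sample is called motor neurons in one label and embryoid bodies in another, and no sorting step is given in the sources used here. Because whole cultures were measured, fewer cells of a type and less RNA per cell cannot be told apart.

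Glutamatergic terminals load their vesicles through the vesicular glutamate transporters, of which Slc17a6 (VGLUT2) is the usual form in spinal cord and brainstem and Slc17a7 (VGLUT1) that of the cortex. GABA is made from glutamate by the decarboxylases Gad1 (GAD67) and Gad2 (GAD65), and both GABA and glycine enter vesicles through Slc32a1 (VIAAT). Serotonin neurons hydroxylate tryptophan with Tph2 and take serotonin back up with Slc6a4. Catecholamine neurons hydroxylate tyrosine with Th, and Ddc, the aromatic amino acid decarboxylase, serves both the catecholamine and the serotonin pathway.

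The promoter windows of the 5 genes that were at least 2-fold higher at Day7 than at Day4, and of Ddc, whose probes gave different profiles, are shown for reference. Each runs 5′ to 3′ along the gene from 250 bases before a RefSeq transcription start to 50 bases after it, in the mouse build GRCm38.p6. Capitals mark matches, on either strand, to TGACGTCA (the cyclic AMP response element), AAAGGTCA (the element bound by NR4A receptors such as Nr4a2), TAATTA (a core bound by many homeodomain proteins), TATAAA (the TATA box) or TTCAGCACC (one arm of the REST element).
Slc17a6, upstream start, chr7:51621580-51621879, plus strand: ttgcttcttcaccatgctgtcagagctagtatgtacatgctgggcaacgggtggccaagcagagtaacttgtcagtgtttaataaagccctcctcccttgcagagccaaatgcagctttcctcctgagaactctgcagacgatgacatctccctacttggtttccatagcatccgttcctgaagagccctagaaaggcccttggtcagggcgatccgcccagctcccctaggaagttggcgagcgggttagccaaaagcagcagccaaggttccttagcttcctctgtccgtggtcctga
Slc17a6, downstream start, chr7:51624387-51624686, plus strand: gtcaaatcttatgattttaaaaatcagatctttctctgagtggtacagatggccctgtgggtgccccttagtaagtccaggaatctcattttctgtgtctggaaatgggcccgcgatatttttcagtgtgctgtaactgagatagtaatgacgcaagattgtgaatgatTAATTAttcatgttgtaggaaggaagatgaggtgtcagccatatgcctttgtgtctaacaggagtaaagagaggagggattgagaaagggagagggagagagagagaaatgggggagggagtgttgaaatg
Slc32a1, chr2:158610508-158610807, plus strand: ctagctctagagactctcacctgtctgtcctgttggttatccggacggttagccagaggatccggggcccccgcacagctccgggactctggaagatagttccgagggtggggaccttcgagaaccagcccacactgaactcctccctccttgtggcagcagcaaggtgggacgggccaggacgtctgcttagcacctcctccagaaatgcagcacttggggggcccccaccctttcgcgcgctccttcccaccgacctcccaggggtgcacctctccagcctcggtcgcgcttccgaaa
Gad1, chr2:70561879-70562178, plus strand: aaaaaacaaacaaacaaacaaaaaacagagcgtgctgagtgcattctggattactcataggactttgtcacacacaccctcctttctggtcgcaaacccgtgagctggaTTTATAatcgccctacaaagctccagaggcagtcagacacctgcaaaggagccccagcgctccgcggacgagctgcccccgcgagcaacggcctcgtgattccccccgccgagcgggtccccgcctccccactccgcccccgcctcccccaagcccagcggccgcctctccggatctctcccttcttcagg
Gad2, chr2:22622077-22622376, plus strand: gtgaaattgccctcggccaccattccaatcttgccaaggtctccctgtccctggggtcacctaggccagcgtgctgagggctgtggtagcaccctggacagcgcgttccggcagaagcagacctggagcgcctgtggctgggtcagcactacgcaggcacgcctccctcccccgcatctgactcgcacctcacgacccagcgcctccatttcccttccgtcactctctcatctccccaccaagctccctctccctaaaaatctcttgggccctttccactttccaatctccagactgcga
Th, chr7:142899946-142900245, minus strand: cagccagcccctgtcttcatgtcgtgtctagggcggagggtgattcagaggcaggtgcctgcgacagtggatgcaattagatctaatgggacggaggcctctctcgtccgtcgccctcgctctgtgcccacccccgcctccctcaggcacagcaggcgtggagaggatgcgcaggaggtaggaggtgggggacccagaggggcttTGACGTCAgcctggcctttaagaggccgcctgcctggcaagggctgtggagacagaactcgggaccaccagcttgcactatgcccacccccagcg
Ddc, upstream start, chr11:11898095-11898394, minus strand: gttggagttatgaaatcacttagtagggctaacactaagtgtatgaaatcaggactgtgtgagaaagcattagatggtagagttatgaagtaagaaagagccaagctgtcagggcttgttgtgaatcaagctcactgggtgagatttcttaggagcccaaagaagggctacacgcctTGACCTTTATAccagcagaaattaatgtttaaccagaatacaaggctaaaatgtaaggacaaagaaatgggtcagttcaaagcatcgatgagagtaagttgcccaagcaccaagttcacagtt
Ddc, downstream start, chr11:11890359-11890658, minus strand: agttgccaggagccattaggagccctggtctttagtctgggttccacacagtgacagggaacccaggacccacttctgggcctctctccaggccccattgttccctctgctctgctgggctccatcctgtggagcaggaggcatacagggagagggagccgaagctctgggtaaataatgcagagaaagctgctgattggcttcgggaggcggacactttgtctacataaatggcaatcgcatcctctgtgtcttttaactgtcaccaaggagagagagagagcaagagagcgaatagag

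The motifs were chosen after these windows had been read, and a match is a description of the letters, not a binding site. TGACGTCA stood in the Th window from 45 to 38 bases before the start, and 1.79% of all 32851 windows of this length held it. TAATTA stood in the downstream Slc17a6 window from 81 to 76 bases before the start, against 5.29% of all windows. In the upstream Ddc window AAAGGTCA lay on the opposite strand at 73 to 66 bases before the start, where it overlapped an opposite-strand TATAAA, against 1.51% and 13.6% of all windows. TATAAA also occurred on the opposite strand in the Gad1 window, 141 to 136 bases before the start. The windows of Slc32a1 and Gad2, the upstream window of Slc17a6 and the downstream window of Ddc held none of the 5 motifs. TTCAGCACC was in none of the windows shown and in 0.371% of all windows, among them that of Tph2. CANNTG, the E-box bound by proneural bHLH factors, was searched as well but was present in 72.3% of all windows and is not marked.

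The share of mouse probes well above background was between 57.5% and 65.7% on the ES, Day3, Day4 and Day7 arrays and 86.7% on the Day2 array. Probes for external control RNAs (ERCC), which match no mouse transcript, numbered 96, and 64.6% of them carried the same flag on the Day2 array, against 4.17% to 9.38% elsewhere. The Day7 array alone lay on a second slide, so the effects of slide and of time cannot be told apart in any change to Day7. The Day7 culture carried the defining markers of motor neurons, with Isl1 at 13.25, Chat at 12.21 and Slc18a3 at 15.54 on the normalized log2 scale, all well above background. Mnx1 (Hb9), another motor neuron marker, had no matched probe.

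Levels below are quantile-normalized log2 signals, and signals in scanner units are the background-subtracted values before normalization. The error given is the scanner software's own error for a spot, about 10% of a bright signal, and it covers that 1 array only. A probe that the software did not flag as well above background has only an upper bound. A change against such a value was taken from a floor, the dimmest flagged probe of that array, or from the probe's own value where that was higher, and is written as at least N-fold. A change of 2-fold was used as a fixed rule of size, and no test was possible.

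Slc17a6 stood out at Day7. Its signal was 35.5 ± 7.41 scanner units on the ES array, 48.3 ± 6.15 at Day2, 4.31 at Day3, 3.73 at Day4 and 1968 ± 197 at Day7. Day3 and Day4 were not well above background, and Day7 lay above every other array. On the normalized log2 scale the levels were 5.13, 3.47, 2.02, 3.06 and 10.43. Slc17a6 was therefore at least 71.2-fold higher at Day7 than at Day4 and 39.4-fold higher than in ES cells, a difference of 5.30 ± 0.33 on the log2 scale. The Day4 to Day7 difference stayed between 4.41 and 7.63 over the 10 settings that gave it a value. It had none when both arrays had to be well above background. The ES level lay 1.45 under the 95th percentile of the ERCC probes on that array, and with that percentile as the floor the ES to Day7 difference was at least 3.85, and with normexp 4.01.

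Slc17a7, the other vesicular glutamate transporter, did not share this course. Its signal was 39.6 ± 8.04, 37.8 ± 5.38, 42.7 ± 6.39 and 21.7 ± 3.09 scanner units at ES, Day2, Day3 and Day4, and 7.92 at Day7, where it was not well above background. The normalized levels were 5.29, 3.14, 6.07, 5.39 and 3.27. All of these lie near the limit of detection, and the ES, Day2 and Day3 signals differed by less than their scanner errors. The value at Day7 was at least 1.66-fold lower than at Day4 and at least 1.55-fold lower than in ES cells. These are bounds, so a fall of 2-fold or more was neither called nor set aside. From Day4 to Day7 the fall was at least 1.04 on the log2 scale with the 75th percentile shift or the deposited values and 2.12 with the other detection flag or without a filter, and from ES to Day7 it was 2.02 with either of the last settings. Ordered by level, Day3 was highest, and Day4 and ES did not differ beyond 2 combined scanner errors.

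**Figure D1:**
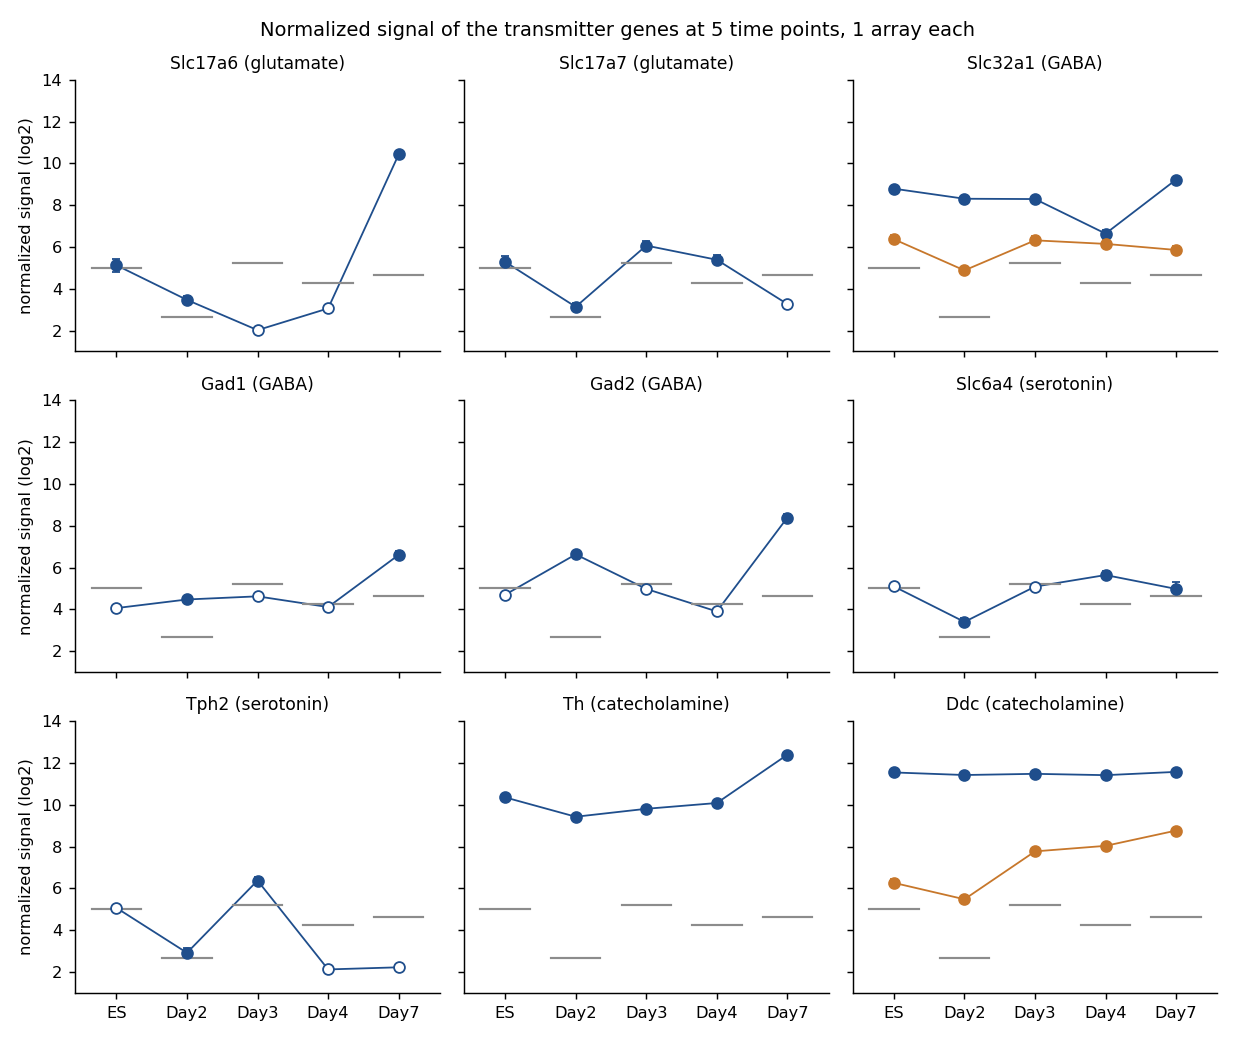
Each panel plots the normalized signal (log2, vertical axis) of 1 transmitter gene on the 5 arrays, 1 per time point. Blue shows the only or brighter probe and orange the dimmer probe of a gene with 2. Filled circles are well above background, with the scanner error as a bar, and open circles are not, and grey lines mark the lowest value well above background on each array. Slc17a6 lies at 10.43 at Day7 against 5.13 or less before, and Th rises to 12.40 while the brighter Ddc probe stays between 11.42 and 11.57.

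Among the GABA genes, both decarboxylases were highest at Day7. The Gad2 signal was 26.6 at ES, 208 ± 21.1 at Day2, 18.1 at Day3, 7.81 at Day4 and 478 ± 48.1 at Day7 in scanner units. Only Day2 and Day7 were well above background, and on the normalized scale they stood at 6.64 and 8.40 against 4.71, 4.98 and 3.91 on the ES, Day3 and Day4 arrays. Gad2 was at least 17.5-fold higher at Day7 than at Day4 and exceeded ES cells by at least 3.39 on the log2 scale. Both differences exceeded 2-fold in all 10 settings that gave them a value, and the lowest, on the log2 scale, were 2.39 and 1.82. Neither had a value when both arrays had to be well above background.

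Gad1 was dimmer. Its signal was 17.4, 77.9 ± 8.81, 13.6, 8.98 and 124 ± 13.8 scanner units from ES to Day7, and again only Day2 and Day7 were well above background. The normalized levels were 4.07, 4.48, 4.63, 4.12 and 6.61. Gad1 was at least 5.07-fold higher at Day7 than at Day4 and at least 3.04-fold higher than in ES cells. These calls were less firm than those of Gad2. The Day4 to Day7 difference was at least 0.95 on the log2 scale after normexp background correction, a bound too low for a 2-fold call, and the ES to Day7 difference was at least 0.92 with normexp and at least 0.04 with the floor set at the 95th percentile of the ERCC probes.

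Slc32a1, the vesicular transporter that follows the decarboxylases, was measured by 2 probes that disagreed. The brighter probe gave 489 ± 49.4, 486 ± 48.8, 232 ± 23.6, 54.5 ± 5.84 and 867 ± 86.9 scanner units from ES to Day7, and all were well above background. On the normalized scale it went from 8.79 in ES cells to 6.64 at Day4 and 9.22 at Day7, so the Day4 level was lowest and the Day7 level was 6.01-fold higher than it. Day7 was only 1.35-fold above ES cells, a difference of 0.44 ± 0.21 on the log2 scale. The dimmer probe gave 85.1 ± 11.3, 93.0 ± 10.1, 51.7 ± 7.15, 37.8 ± 4.42 and 68.7 ± 9.26 scanner units. Its normalized level was 6.15 at Day4 and 5.86 at Day7, a difference of -0.29 ± 0.26 in the opposite direction. The Day7 rise of Slc32a1 thus rests on 1 of its 2 probes.

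Neither serotonin gene was called at least 2-fold higher at Day7 than at Day4 or in ES cells. Tph2, the rate-limiting enzyme, gave 34.2, 29.5 ± 4.89, 54.3 ± 7.13, 2.13 and 5.81 scanner units from ES to Day7. Only Day2 and Day3 were well above background, and the Day4 and Day7 values were smaller than their own scanner errors. The normalized levels were 5.07, 2.92, 6.38, 2.12 and 2.23, so the Day3 level was highest and was at least 4.30-fold above Day4. No change between Day7 and either ES or Day4 could be given, because neither side was well above background. With the other detection flag or without a filter, Tph2 was called at least 2-fold lower from ES to Day7.

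The signal of the serotonin transporter Slc6a4 was 34.9, 46.7 ± 6.24, 19.7, 26.3 ± 3.59 and 34.5 ± 7.53 scanner units from ES to Day7. It was well above background at Day2, Day4 and Day7. The normalized levels were 5.10, 3.41, 5.09, 5.65 and 4.98, and the Day7 level was 1.59-fold below Day4, a difference of -0.66 ± 0.37 on the log2 scale. Without normalization this difference was 0.39. On Day7 it lay 0.06 above the 95th percentile of the ERCC probes, the smallest margin among the members that exceeded that level there.

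Th was well above background on all 5 arrays and was highest at Day7. Its signal was 1539 ± 154 in ES cells, 924 ± 92.5 at Day2, 716 ± 71.8 at Day3, 630 ± 63.0 at Day4 and 7045 ± 704 at Day7. On the normalized scale these were 10.36, 9.43, 9.81, 10.09 and 12.40. The Day7 level stood apart, and in the order ES, Day4, Day3 and Day2 no neighbouring levels differed beyond 2 combined scanner errors. Levels further apart in that order did, with log2 changes of -0.93 ± 0.20 from ES to Day2 and -0.55 ± 0.20 from ES to Day3. Th was 4.97-fold higher at Day7 than at Day4, a log2 difference of 2.31 ± 0.20, and 4.12-fold higher than in ES cells, a log2 difference of 2.04 ± 0.20. Over all settings run these differences ranged from 2.16 to 3.48 and from 1.83 to 2.19.

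Ddc, the next enzyme of the pathway, gave 2 profiles. Its brighter probe was at 3837 ± 384, 3441 ± 344, 2295 ± 230, 1564 ± 156 and 4165 ± 417 scanner units, which after normalization became 11.55, 11.42, 11.48, 11.42 and 11.57. No neighbouring pair of these levels differed beyond 2 combined scanner errors, and Day7 exceeded ES by 0.03 ± 0.20 on the log2 scale. The dimmer probe, designed to another RefSeq transcript of the gene, gave 79.0 ± 10.9, 122 ± 12.9, 158 ± 16.5, 150.0 ± 15.2 and 623 ± 62.6 scanner units. Its normalized levels were 6.27, 5.48, 7.77, 8.04 and 8.77, and Day7 was 5.66-fold above ES, a log2 difference of 2.50 ± 0.25. Which transcript each probe detects was not tested, and Ddc is counted below by its brighter probe.

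From Day4 to Day7, 5 of the 8 members with a value were at least 2-fold higher (Slc17a6, Slc32a1, Gad1, Gad2 and Th) and none was called at least 2-fold lower. Over all 16081 genes with a value in that step, 17.8% were at least 2-fold higher and 18.1% at least 2-fold lower. The median log2 change was 2.33 over the members and -0.12 over all genes. From ES to Day7, 4 of 8 members were at least 2-fold higher (Slc17a6, Gad1, Gad2 and Th) and none was called lower, against 23.2% higher and 24.4% lower among 15835 genes, with medians of 1.02 and -0.07. A gene whose bound was under 2-fold counts here as not called. Ddc was within 2-fold in both comparisons and Slc6a4 from Day4 to Day7, Slc17a7 had bounds under 2-fold in both, Slc6a4 had no fold from ES to Day7, and Tph2 had no value. When a member had to be detected on both arrays to be counted, 2 of 4 were higher from Day4 to Day7 (Slc32a1 and Th), against 16.3% of all genes so filtered, and 2 of 4 from ES to Day7 (Slc17a6 and Th), against 20.9%.

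**Figure D2:**
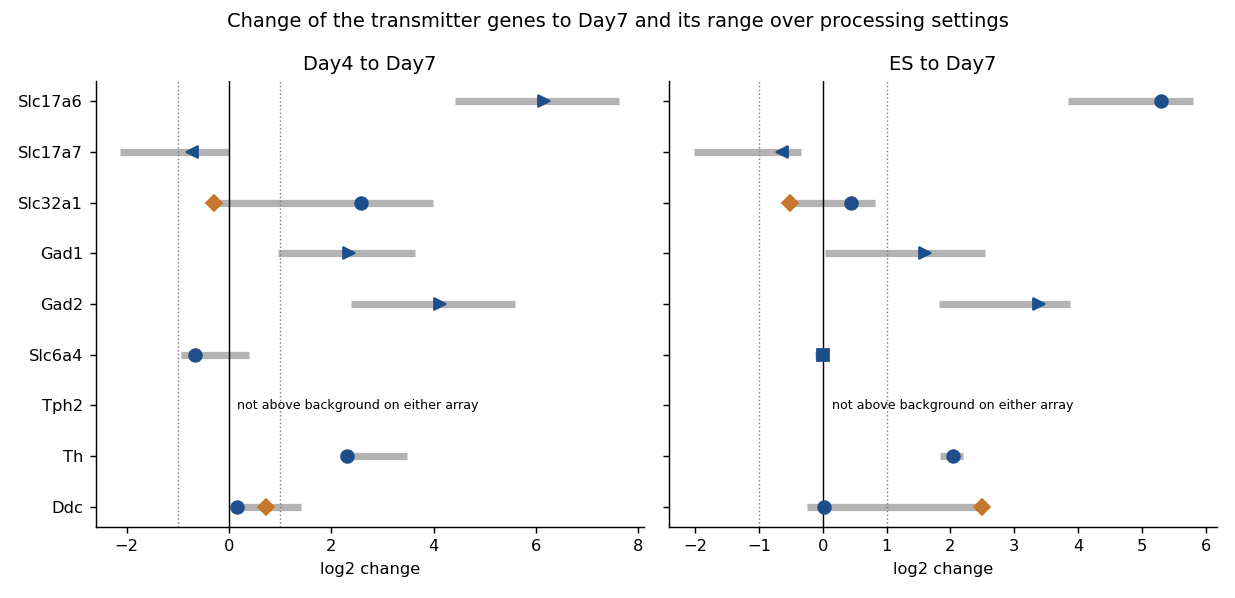
Log2 change (horizontal axis) of each transmitter gene from Day4 to Day7 and from ES to Day7. Blue circles are measured changes, triangles are bounds against an array on which the gene was not well above background, the square is a gene with no fold, orange diamonds are the dimmer probes of Slc32a1 and Ddc, and grey bars run from the lowest to the highest value over the processing settings. Dotted lines mark 2-fold. Slc17a6, Gad2 and Th lie beyond 2-fold in both panels with their whole bars, while the Slc32a1 bar reaches -0.29 from Day4 to Day7.

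The earlier steps held fewer changes, and most involved the Day2 array. From ES to Day2, Gad2 was at least 3.08-fold higher, against 8.82% of 18315 genes, and Slc17a6 and Slc17a7 were 3.16-fold and 4.44-fold lower, against 11.3%. From Day2 to Day3, Slc17a7 and Tph2 were higher by 2.93 and 3.46 on the log2 scale, against 13% of 18307 genes, and Gad2 was at least 2.67-fold lower, against 7.76%. From Day3 to Day4, Slc32a1 and Tph2 were lower, by 3.14-fold and at least 4.30-fold, against 4.85% of 15624 genes, and no member was higher, against 3.62%. The dimmer Slc32a1 probe changed by -0.17 ± 0.26 in that step.

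The background of the Day2 array is given beside these steps. All 9 members were well above background at Day2, against 5 on the ES, Day3 and Day4 arrays and 7 at Day7. Of these, Th, Ddc and Slc32a1, each by its brighter or only probe, lay above the 95th percentile of the ERCC probes at Day2, and Gad2 lay 0.76 below it. With that percentile as the floor, no member was called from ES to Day2 or from Day2 to Day3. The falls of Slc17a6 and Slc17a7 from ES to Day2 were absent when each array was shifted to its 75th percentile in place of quantile normalization, and Gad1 and Gad2 were then at least 2-fold higher. The Slc17a7 rise from Day2 to Day3 was likewise absent with that shift, with the deposited values, without normalization and with normexp. The part of the raised background in these changes was not tested.

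**Figure D3:**
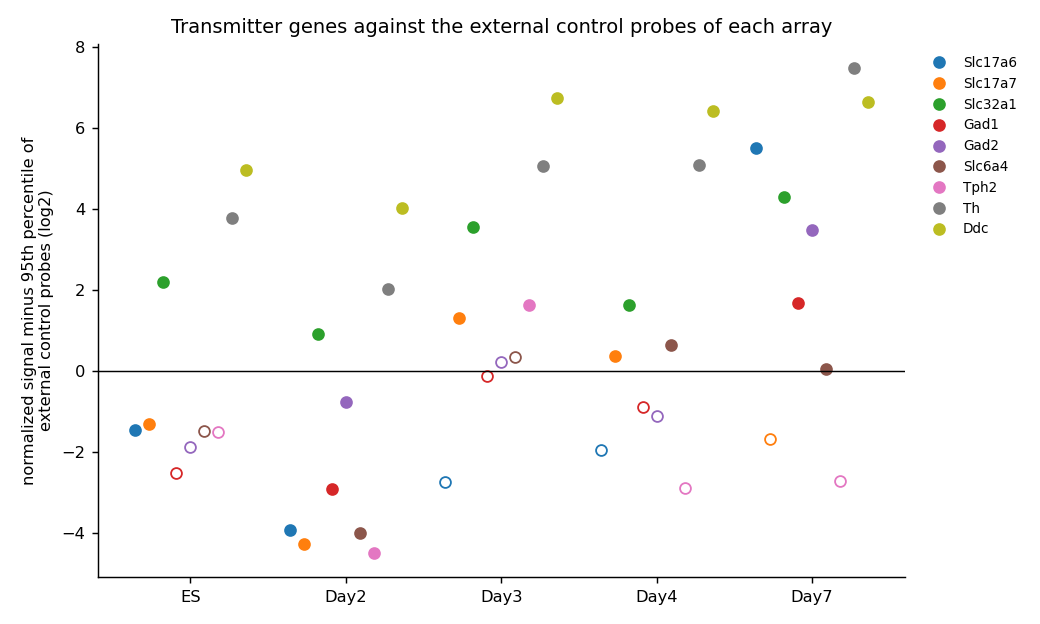
The normalized signal of each gene minus the 95th percentile of the 96 external control probes of the same array (log2, vertical axis) for the 5 arrays, with 1 colour per gene. Filled circles are well above background and open circles are not. At Day2 all circles are filled but those of Slc17a6, Slc17a7, Gad1, Gad2, Slc6a4 and Tph2 lie below 0, and at Day7 those of Slc17a6, Slc32a1, Gad1, Gad2, Th and Ddc lie between 1.69 and 7.47 above it.

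Transmitter identity also involves reuptake, breakdown and cofactors, and 51 further genes of these pathways were listed by role. From Day4 to Day7, 10 of the 48 with a value were at least 2-fold higher and 10 at least 2-fold lower, with a median of 0.01, close to the shares and the median of all genes. From ES to Day7 these counts were 11 and 10, with a median of 0.02. The pathways are described in turn, since their counts differed, but the differences between lists were not tested. Over all genes 17.8% were higher and 18.1% lower from Day4 to Day7, and 23.2% and 24.4% from ES to Day7.

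In the glutamate pathway, 3 of 14 other genes were higher at Day7 than at Day4 and 1 was lower. The neuronal glutamate transporter Slc1a1 rose most, by 29.7-fold, followed by the third vesicular transporter Slc17a8 by 2.97-fold and the glial transporter Slc1a3 by 2.51-fold. The second Slc17a8 probe was higher by at least 3.21 on the log2 scale. Gls2, a glutaminase, was 2.95-fold lower.

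In the GABA pathway, 2 of 7 other genes were higher and 3 lower from Day4 to Day7. Abat, the transaminase that degrades GABA, was 9.39-fold higher, and 31.9-fold higher than in ES cells. The GABA transporter Slc6a11 (GAT-3) was at least 7.89-fold higher, while the related transporters Slc6a13 and Slc6a12 were 4.10-fold and 2.21-fold lower.

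In the glycine list none of 6 genes was at least 2-fold higher at Day7 than at Day4 or in ES cells. Between Day4 and Day7, 3 were lower (Shmt1, Shmt2 and Amt, between 2.17-fold and 3.48-fold), with a median of -0.80, and from ES to Day7, 4 were lower, with a median of -1.55. The latter were the serine hydroxymethyltransferase Shmt1 and 3 parts of the glycine cleavage system, Gldc, Amt and Gcsh, all enzymes of one-carbon metabolism that are not confined to neurons. From ES to Day7 Gcsh passed 2-fold by its brightest probe only. Slc6a9 (GlyT1), the glycine transporter found mainly on glia, was within 2-fold in both comparisons, at 0.73 from ES and -0.28 from Day4.

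Of the 6 other serotonin genes with a value, none was called in either direction from ES to Day7, where Tph1 and Htr1a had bounds only, and 1 was higher and 1 lower from Day4 to Day7. Over the latter step Fev (Pet1), the transcription factor of serotonergic neurons, was higher by 1.38 on the log2 scale, yet its Day7 level of 7.62 was close to the ES level of 7.80. Maob, which oxidises monoamines, was lower by 2.14 on the log2 scale.

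The catecholamine list had the highest share of raised genes among these pathways, though the lists are short. From Day4 to Day7, 4 of 8 were higher and none lower, against 17.8% and 18.1% of all genes. From ES to Day7, 5 were higher and 1 lower, against 23.2% and 24.4%. Slc18a2 (VMAT2), which loads monoamines into vesicles, was 16.4-fold higher at Day7 than at Day4, and its second probe gave a similar log2 difference of 4.08 against 4.03. Dbh, which converts dopamine to noradrenaline, was at least 16.2-fold higher, and the noradrenaline transporter Slc6a2 was 4.30-fold higher. The nuclear receptor Nr4a2 (Nurr1) was 9.25-fold higher. Slc6a3, the dopamine transporter, was not well above background at Day4 or Day7, and Pitx3, a factor of midbrain dopamine neurons, was 4.59-fold lower at Day7 than in ES cells.

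Tetrahydrobiopterin is the cofactor that both Th and Tph2 need. None of its 7 genes was at least 2-fold higher from Day4 to Day7, and from ES to Day7 Pcbd1, which recycles the cofactor, was 4.48-fold higher. Between Day4 and Day7 Spr, sepiapterin reductase, was 4.05-fold lower, and Gchfr, the feedback regulator of its synthesis, was lower by 1.58 on the log2 scale. Over the same step Gch1, the first enzyme of the route, changed by -0.29 by its brighter probe and by 0.68 by the other. From ES to Day7 the brighter Gch1 probe changed by -0.82, and the other was higher by at least 1.24 on the log2 scale.

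**Figure D4:**
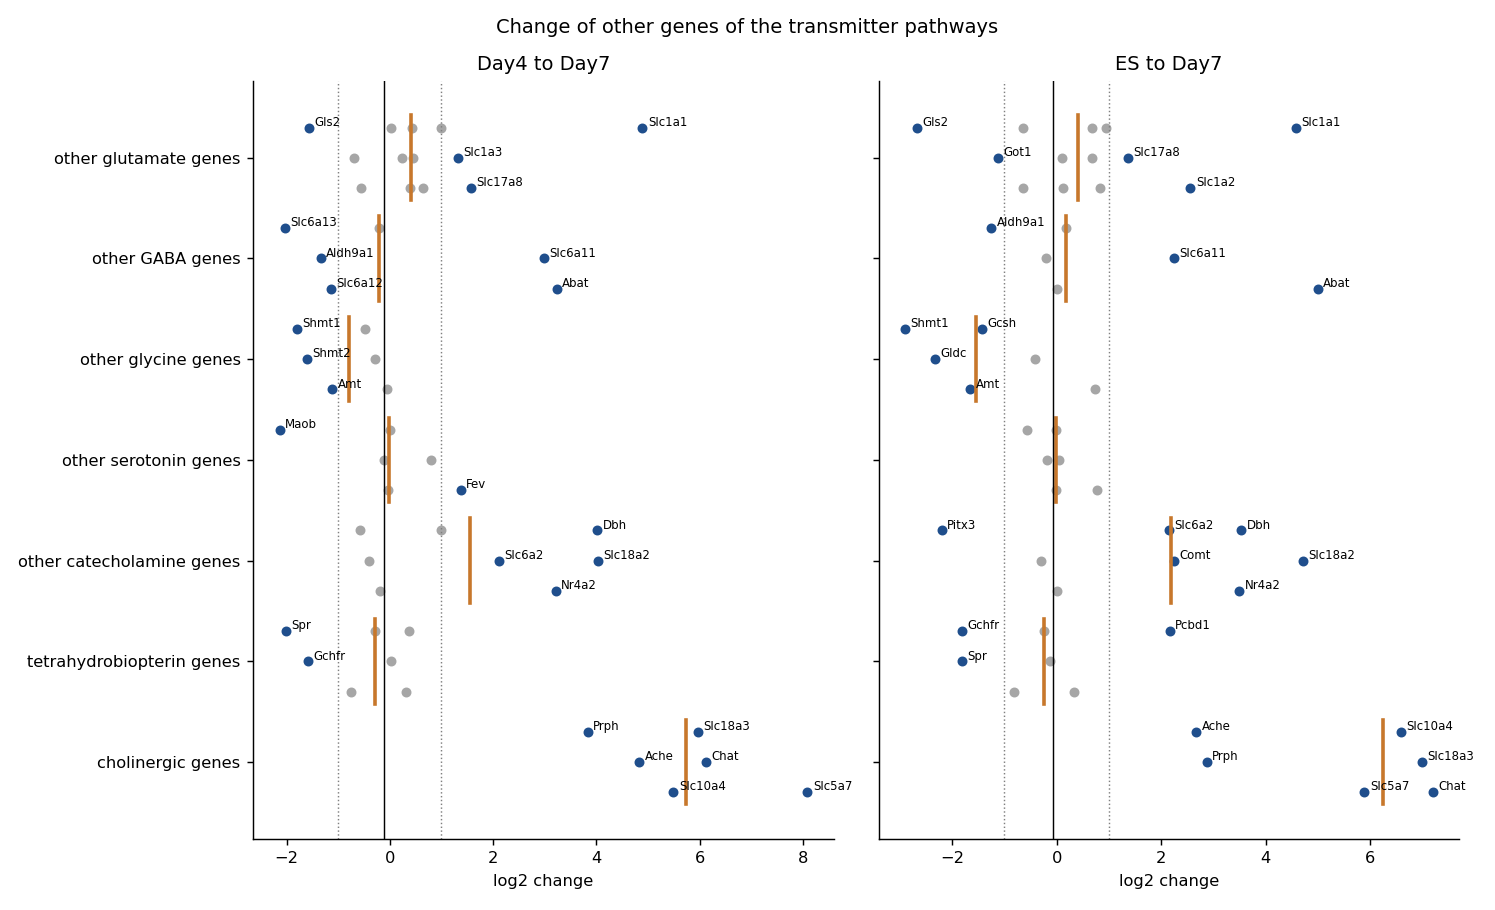
Log2 change (horizontal axis) from Day4 to Day7 and from ES to Day7 of the other genes of each transmitter pathway, 1 circle per gene, blue and named where at least 2-fold. Orange bars are list medians, the black line is the median of all genes and dotted lines mark 2-fold. Bounds are drawn at their bound, and genes not reported by name are not drawn but count in the medians. The cholinergic genes lie furthest right, with medians of 5.73 and 6.24, and the catecholamine list comes next, with 1.54 and 2.20.

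The cholinergic list, which holds the filament gene Prph beside genes of the motor neuron transmitter, set the scale for these values. All 6 of its genes were at least 2-fold higher at Day7 in both comparisons. The choline acetyltransferase Chat was 69.4-fold, the vesicular acetylcholine transporter Slc18a3 62.4-fold and the choline transporter Slc5a7 at least 271-fold higher than at Day4. Genes of neurons in general rose as well, in 13 of 14 cases, with a median log2 change of 5.22. The log2 difference of Th over this step, 2.31, was smaller than that median, whereas the bound for Slc17a6, 6.15, was larger.

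Transcription factors of other neuron types were followed because whole cultures were measured. Their counts stand beside 17.8% of all genes higher and 18.1% lower from Day4 to Day7. Of the glutamatergic factors, 3 of 7 with a value were higher from Day4 to Day7. Sim1, which marks V3 interneurons, was at least 20.1-fold higher and was not well above background at Day4. Tlx1 was 2.53-fold higher, Lhx2 4.41-fold lower, and Tlx3, Barhl2 and Neurod6 were not well above background at Day4 or Day7. Of the 3 Lhx9 probes the brightest had no value, and another was higher by at least 1.13 on the log2 scale. V3 interneurons are glutamatergic and use Slc17a6, and the part of such cells in the Slc17a6 change was not tested.

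The inhibitory factors were mixed. From Day4 to Day7, 3 of 12 were higher (Lhx5, Foxd3 and Tal1, between 2.13-fold and 4.25-fold) and 2 lower (Lhx1 and Lbx1). Gata3 and Gata2, factors of V2b interneurons, were within 2-fold over this step, with Day7 levels of 9.67 and 9.05. En1, Dlx1 and Pax8 were not well above background at Day4 or Day7, and Ptf1a not at Day7. The median of the list was -0.30, against -0.12 over all genes.

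Of the catecholaminergic factors, 5 of 10 were higher and none lower from Day4 to Day7. Phox2a, which directs noradrenergic neurons and is also found in visceral and branchial motor neurons of the hindbrain, was 7.40-fold higher, with a Day7 level of 13.29. Foxa1 and Foxa2 were 12.3-fold and 6.06-fold higher. Insm1 and the midbrain factors Lmx1a, Lmx1b, En2 and Pitx3 were within 2-fold and En1 was not well above background. Among the serotonergic factors, Fev, Nkx2-2 and Foxa2 were higher and the other 4 of 7 within 2-fold.

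Markers of other tissues moved over the same step. Of 7 floor plate markers, 6 were higher from Day4 to Day7, with a median of 5.51, and their levels spanned 2.89 to 11.52 at Day4 and 6.97 to 14.58 at Day7. Shh was not well above background at Day4 and was at 12.71 at Day7, at least 346-fold higher. Foxa2 belongs to this list and to the catecholaminergic and serotonergic lists. Of 7 neural crest markers, 3 were higher, among them Ngfr and Foxd3, and Tfap2a was lower, Sox10 was at 7.90 and 8.14 and Tfap2b was not well above background at Day7. Among astrocyte markers, Slc1a3 and Aldh1l1 were higher, Gja1 was lower, and S100b was not well above background at Day7. The 3 Gfap probes disagreed, with 1 higher by at least 2.44 on the log2 scale, 1 lower by at least 0.56 and 1 with no value. The part of these cell types in the changes of the transmitter genes was not tested.

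**Figure D5:**
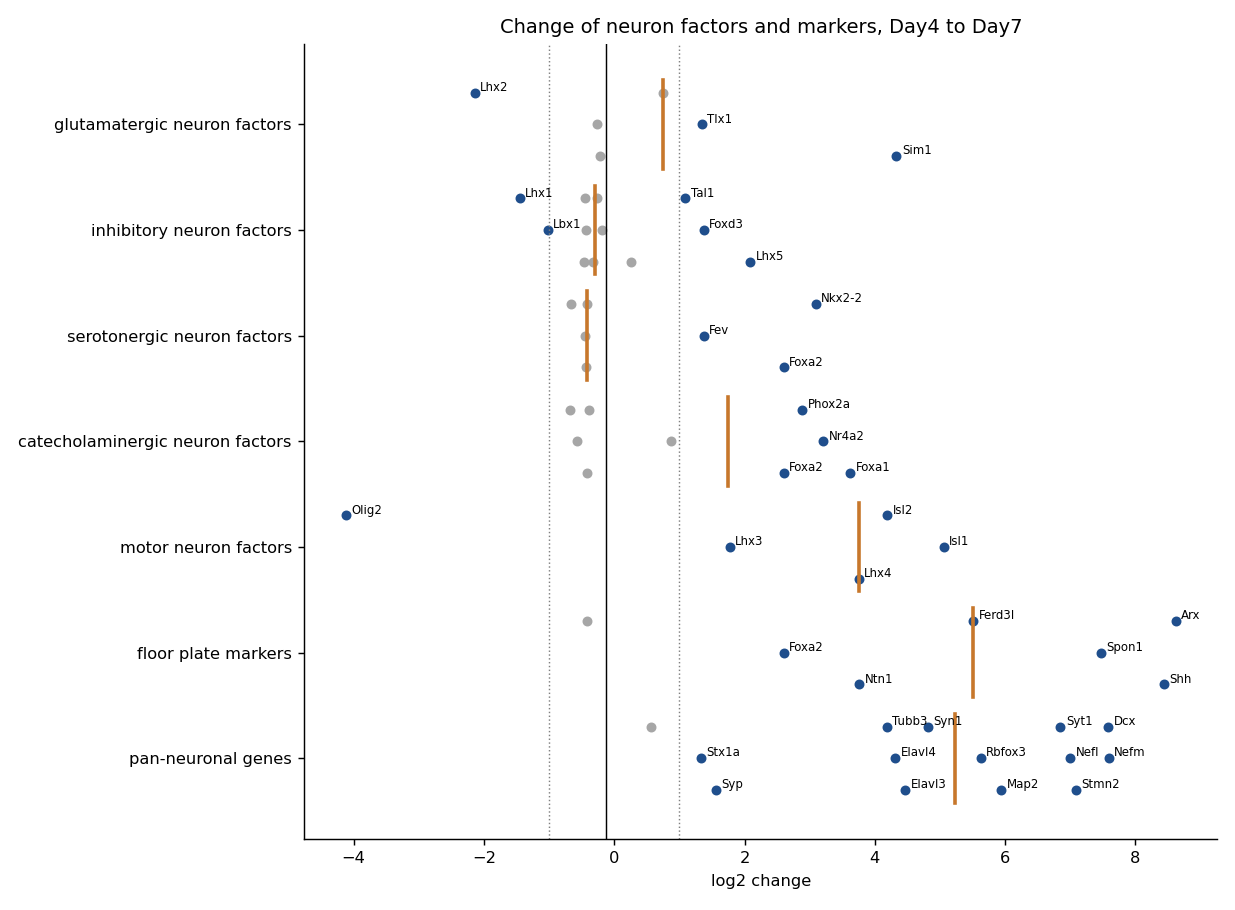
Log2 change from Day4 to Day7 (horizontal axis) of transcription factors of neuron types, floor plate markers and pan-neuronal genes, 1 circle per gene, blue and named where at least 2-fold, with bounds drawn at their bound. Genes not reported by name are not drawn but count in the medians. Orange bars are list medians, the black line is the median of all genes and dotted lines mark 2-fold. Floor plate and pan-neuronal medians lie at 5.51 and 5.22, the inhibitory and serotonergic medians below 0.

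For each member, the 3 genes most like it were found as those with the smallest root mean square (RMS) difference between log2 profiles over the 5 arrays, each centred on its own mean. A value not well above background was raised to the lowest signal well above background on its array where it lay under it, so all genes so treated share that value. For Slc17a6, measured on 3 arrays, these were Adgrb3, an adhesion receptor of synapses, Sez6 and Ttc9b, at RMS differences of 0.20, 0.25 and 0.26. For Th, measured on all 5, they were Tusc1, Ikzf4 and Zc4h2, at 0.09 to 0.13. The Slc32a1 neighbours were Maneal, Pcyt1b and Runx1 and the Ddc neighbours Zfp398, Rita1 and Ciapin1, both over 5 measured arrays. The Slc17a7 neighbours, over 4, were Slco1a5, Krtap9-5 and Col9a3, and those of Slc6a4, over 3, were Usp17la, Tafa1 and Lmx1a. All neighbours of Slc17a7 and Slc6a4 were lowest at Day2, the array with the raised background, whose part in these likenesses was not tested. Gad1, Gad2 and Tph2 were well above background on 2 arrays only, so no neighbours are given for them. These likenesses are descriptions of the arrays.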

How the data were processed

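The authors deposited the scanner output of 5 arrays, in which Agilent Feature Extraction (version 10.5.1 in the submitters' processing notes) had subtracted background from each spot's intensity without normalization between arrays, with flags for detection and outliers. They also deposited a log2 table, which equalled the log2 processed signal minus 1 constant per array, close to its 75th percentile, within 0.01 for 100% of the single-spot probes. All columns of that table belonged to these samples.

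After removal of controls and outlier spots, log2 signals were averaged per probe and arrays were quantile-normalized in limma 3.58.1 (R 4.3.3), since a legend of the study names quantile analysis. Further steps used Python 3.11.15, numpy 2.4.6, pandas 2.3.3 and matplotlib 3.10.9. Probes were named through RefSeq accessions of GRCm38.p6, for names only, since the array was designed on an earlier build; the brightest probe over the 5 arrays stood for a gene. Genes whose brighter side did not exceed the floor entered medians as 0. The median SD between spots of a probe was 0.06 to 0.11 on the log2 scale over 432 probes, 0 probes were saturated, and the number of arrays limits the precision. With 1 array per time point no p-value was computed.

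The members and lists were chosen with earlier results of these data known. From the other lists, genes at least 2-fold changed to Day7 were named, with the cholinergic transporters and detected markers, and the others were counted, while some listed genes are counted but not reported by name here; genes within 2-fold that are named were chosen after their values were seen. The steps were tested on the ES array against a copy of itself, with known changes placed only in probes well above background. Of true log2 changes of -3, -2, 2 and 3, 96%, 92%, 100% and 100% were called, and 0% of unchanged probes. Changes of dim probes, the Day2 background and the slide were not covered. Alternatives were other normalizations, normexp with an offset of 50, the deposited log2 values, another detection flag, other filters, floors, thresholds and probes. Promoter sequences came from RefSeq, with windows for all 10 members.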

Additional observations from a re-analysis of the deposited data

Results flagged for a closer look

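The ERCC probes measure no mouse gene. On the Day2 array 64.6% of the 96 were detected, against 7.29% in the ES sample, and this signal in external controls is the reason for a closer look. On the same array all 9 measured transmitter genes were well above background, and Slc17a6, Slc17a7, Gad1, Gad2, Slc6a4 and Tph2 lay below the 95th percentile of those probes. Whether external control RNA was added is not given in the sources used here, and the cause was not tested.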

How the results depend on the processing

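No paired analysis was possible because no group held more than 1 array, and for the same reason no array could be left out of a group. A slide block could not be fitted, since Day7 alone was on its slide, and naming probes by a gene name column was not run, since the scanner files used here hold none. Quantile normalization without the Day2 array and the dimmer probe of Slc32a1 and Ddc were added after seeing the data. From ES to Day2 the 3 members called became 0 with normexp or the ERCC floor, 1 at 4-fold, and 5 with the other detection flag or no filter. From Day2 to Day3 the 2 higher and 1 lower became 0 higher and 5 lower without normalization (Slc17a6, Slc32a1, Gad1, Gad2 and Slc6a4), 5 in all with the other flag, without a filter or with the dimmer probes, 1 with normexp and 0 with the ERCC floor. From Day3 to Day4 the 2 became 4 without a filter, and 1 with both arrays above background, with the mean of all probes, at 4-fold or with the dimmer probes. From Day4 to Day7 the 5, and from ES to Day7 the 4, became 2 when both arrays had to be above background, and the other 12 alternatives of each gave counts within 1.5 times. These counts add calls in both directions. From Day4 to Day7, 5 were higher and 1 lower (Slc17a7) with the 75th percentile shift, the deposited values, the other detection flag or no filter. From ES to Day7, 4 were higher and 2 lower (Slc17a7 and Tph2) with the other detection flag or no filter. The 20 other pathway genes called from Day4 to Day7, 10 higher and 10 lower, became 31 without normalization, 30 higher and 1 lower, and 10 at 4-fold. The Slc32a1 change from Day4 to Day7 reversed to -0.29 with its dimmer probe. The causes were not tested. Without normalization the median of all genes moved to 1.06 from Day4 to Day7, with 52.1% higher and 3.33% lower. With the 75th percentile shift it was -0.35 from ES to Day7, with 20.8% higher and 32.3% lower, and from ES to Day2 16.5% were higher and 7.01% lower. Levels of Slc17a7, Gad1, Slc6a4 and Tph2 were limited by background.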

Other observations

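Genes of other cell states behaved as follows in the same cultures. Of 10 pluripotency genes, 8 were at least 2-fold lower at Day7 than in ES cells and none higher, with a median log2 change of -3.63. Fgf4 was 30.5-fold and Pou5f1 18.0-fold lower, while Nanog and Tbx3 were within 2-fold, and all 10 were still well above background at Day7. Olig2, the factor of motor neuron progenitors, was at 11.47 at Day4 and 7.35 at Day7, whereas Isl1 and Isl2, factors of postmitotic motor neurons, were 33.3-fold and 18.2-fold higher at Day7 than at Day4.

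Endoderm markers were mostly lower over that step, with 4 of 6 at least 2-fold lower, among them Sox17, Gata6 and Cldn6, and only Foxa2 higher. Of 5 mesoderm markers with a value, Meox1 was 4.13-fold lower and the others were within 2-fold. None of 6 oligodendrocyte markers passed 2-fold from Day4 to Day7, and from ES to Day7 3 were higher, among them Mbp and Pdgfra, and Mog was lower.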
